A study of Mus musculus with 15 samples.

Results

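The renin-angiotensin system of the mouse kidney was followed through 6 genes: Agt, which encodes the substrate angiotensinogen, Ace, which encodes angiotensin-converting enzyme, Agtr1a, which encodes the main type 1 angiotensin receptor of the rodent kidney, and Mme, Enpep and Anpep, which encode the membrane peptidases neprilysin, aminopeptidase A and aminopeptidase N. Members were taken as the entries of the deposited value table annotated with exactly 1 gene symbol equal to 1 of these names. Each of the 6 had a single entry, and they are 6 of the 22180 genes that could be tested under a name. In the kidneys that carried Cre, Agt was higher at both ages, Ace was lower at both ages, Agtr1a and Mme were lower at 7 months, and Enpep and Anpep did not pass the test.

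Angiotensinogen is the precursor of the angiotensins. Renin, made by the granular cells of the afferent arteriole, cleaves it to angiotensin I, and angiotensin-converting enzyme trims that to angiotensin II, which acts on the type 1 receptor to constrict vessels and to raise sodium reabsorption. The proximal tubule holds a local form of the system: its cells can make angiotensinogen, and their brush border carries angiotensin-converting enzyme, aminopeptidase A, which turns angiotensin II into angiotensin III, aminopeptidase N, which degrades angiotensin III, and neprilysin, which cleaves angiotensin I and other peptides.

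Whole kidneys came from mice that all carried the Rosa26-LSL-PRCC-TFE3 knock-in, in which a stop cassette keeps the fusion silent until Cre removes it. PRCC-TFE3 joins part of PRCC to TFE3, which belongs with TFEB and MITF among the transcription factors, and it occurs in translocation renal cell carcinoma. The KSP-Cre transgene uses the promoter of Cdh16, a cadherin of tubule epithelium, so recombination was directed to tubule cells while RNA was taken from the whole organ. At the age of 4 months, 4 mice lacked Cre (Cre-) and 4 carried it (Cre+). At 7 months there were 3 Cre- mice and 4 Cre+ mice. Each array held the RNA of 1 mouse, and no group carried Cre without the knock-in. The comparison asks how the tubular fusion changes the kidney's transcripts, and whether that differs between the ages.

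The values are log2 expression values from RMA on Mouse Gene 2.0 ST arrays, so a difference of 1 is a doubling of signal, and levels of different genes cannot be set against each other. Array medians over all entries lay between 4.40 and 4.55. Over the 22180 genes tested they lay between 4.90 and 5.01 in Cre- and between 4.96 and 5.13 in Cre+ arrays. Tfe3, read through the probes for the mouse gene, differed between Cre+ and Cre- by 0.03 at 4 months (adjusted p = 0.924) and by 0.22 at 7 months (adjusted p = 0.139), so these entries do not check the labels. The mean over 12 proximal tubule markers was between 11.15 and 11.24 in the Cre- arrays. Because whole organs were used, fewer cells of a type and less RNA per cell cannot be told apart. The sex of the mice is not in the labels. The mean of 3 Y-linked genes (Kdm5d, Eif2s3y and Uty) was between 6.92 and 7.80 in 8 arrays, the high Y class, and between 2.64 and 2.98 in the other 7, the low Y class. Each group had 2 arrays of each kind, but the 7-month Cre- group had only 1 low array.

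Promoter sequence from RefSeq on GRCm38.p6 was at hand for 5 of the 6 genes, as windows of 300 bases from 250 before to 50 after a transcript start. Those of Agt and of the upstream start of Ace are shown, since these genes changed at both ages and in opposite directions, and since TFE3 belongs to a family whose members bind the E-box CACGTG. Sequences run 5′ to 3′ on the gene's strand, and capitals mark the general E-box CANNTG, which reads the same on both strands, and the TATA motif TATAAA on either strand.
Agt, chr8:124569657-124569956, minus strand: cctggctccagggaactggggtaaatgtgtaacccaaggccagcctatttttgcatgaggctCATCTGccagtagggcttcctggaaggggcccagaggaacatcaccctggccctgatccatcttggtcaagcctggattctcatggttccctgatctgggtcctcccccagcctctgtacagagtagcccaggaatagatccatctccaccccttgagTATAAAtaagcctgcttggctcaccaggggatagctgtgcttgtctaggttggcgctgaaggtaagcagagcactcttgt
Ace, chr11:105967698-105967997, plus strand: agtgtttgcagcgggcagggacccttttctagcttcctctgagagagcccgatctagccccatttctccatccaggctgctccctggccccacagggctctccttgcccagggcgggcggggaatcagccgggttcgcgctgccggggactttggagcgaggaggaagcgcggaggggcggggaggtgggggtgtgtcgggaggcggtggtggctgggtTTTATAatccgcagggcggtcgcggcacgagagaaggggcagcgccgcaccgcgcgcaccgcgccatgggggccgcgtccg
The Agt window holds 1 CANNTG, read as CATCTG and starting 188 bases before the transcript start, and 1 TATAAA that begins 30 bases before it. The upstream Ace window holds no CANNTG, and its TATA motif lies on the other strand, so that it reads TTTATA in the sequence as printed, from 31 bases before the start. The window of a second Ace start, not shown, holds 1 such E-box, which starts 211 bases before it. CACGTG occurs in 0 of the 8 windows of the 5 genes. Among all 32817 RefSeq windows of this length, 7.15% hold CACGTG, 72.3% hold CANNTG and 13.6% hold TATAAA on either strand. These matches describe letters within 300 bases and say nothing about binding.

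At 4 months 2 of the 6 genes passed the test, 1 in each direction, where 3.53% of all genes did (2.73% higher and 0.803% lower in Cre+). At 7 months 4 of the 6 passed, 1 higher and 3 lower, where 22.5% of all genes did (11.7% higher and 10.8% lower). A pass is an adjusted p under 0.05 in limma's moderated test with Benjamini-Hochberg adjustment over 22180 genes. With each array centred on its median, the split over all genes shifted from 606 higher and 178 lower to 497 and 511 at 4 months, and from 2597 and 2394 to 2337 and 3609 at 7 months. The median change of the 6 genes was -0.09 at 4 months against 0.05 for all genes, and -0.50 at 7 months against -0.04. Cre+ and Cre- arrays did not overlap for 2 of the 6 genes at 4 months (9.46% of all genes) and for 5 of the 6 at 7 months (29.2% of all genes). The 6 genes and the lists used below were chosen with earlier results of these data known. The shares over all genes are therefore a description, with no test of these sets.

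**Figure D1:**
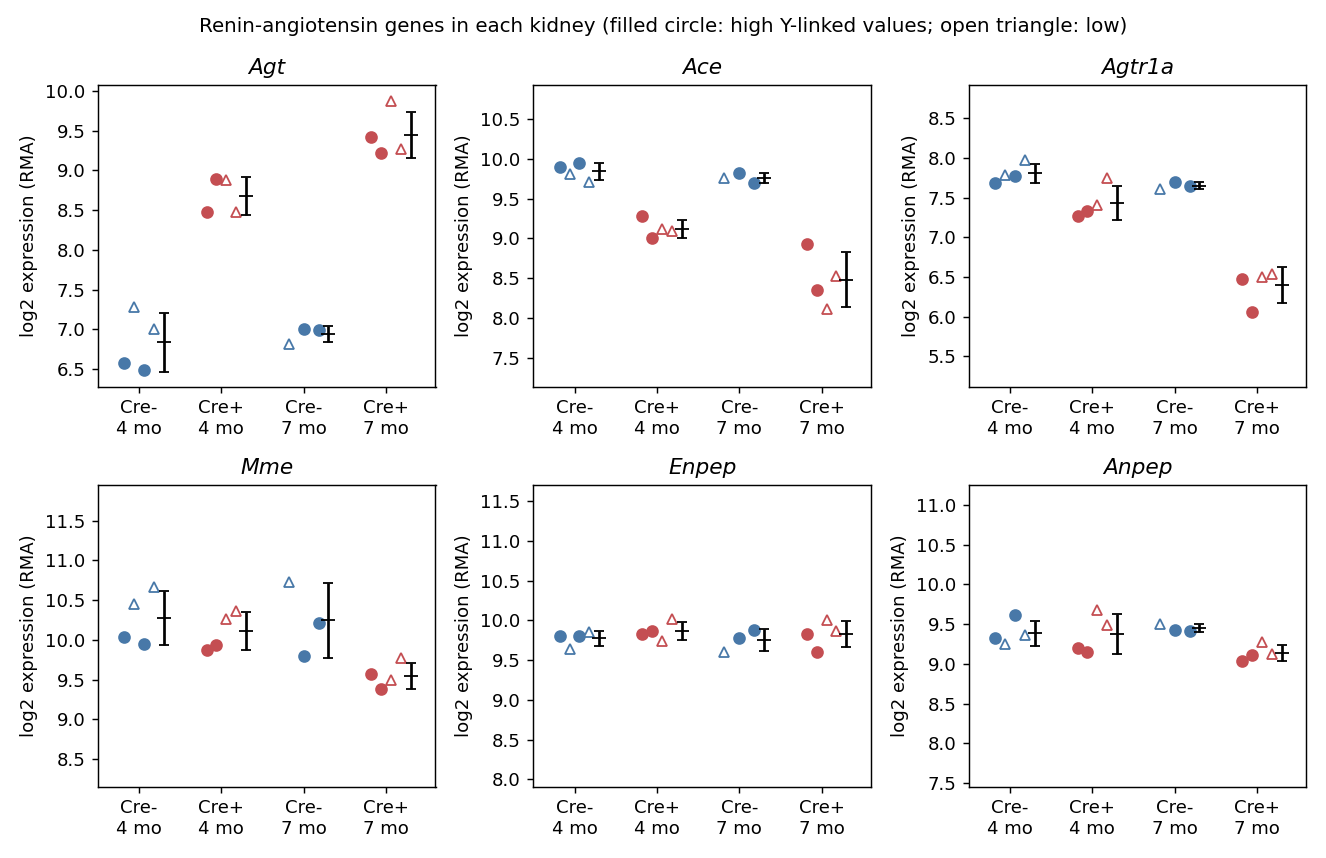
Log2 expression (RMA) of the 6 genes in each kidney, by group, with the mean and SD of each group as bars. All panels span the same range of log2 units, and filled circles mark arrays of high Y-linked values and open triangles those of low values. Agt rises from at most 7.28 in the Cre- arrays to at least 8.47 in the Cre+ arrays, while Enpep stays between 9.60 and 10.01 in all 15.

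Agt, the substrate from which every angiotensin is cut, was higher in every Cre+ kidney than in any Cre- kidney. At 4 months the Cre- arrays read 6.58, 7.28, 6.48 and 7.00, and the Cre+ arrays 8.47, 8.90, 8.88 and 8.47. The gap between the groups was wider than the spread within either of them. Cre+ kidneys had 1.85 more Agt in log2 units (SE 0.18, 95% interval 1.47 to 2.22), a 3.59-fold difference with an adjusted p of 4.95e-06. At 7 months the Cre- arrays read 6.82, 7.00 and 6.99, and the Cre+ arrays 9.42, 9.22, 9.87 and 9.27. Again no array of either kind reached the other group, and Agt was 2.51 higher (SE 0.19, 95% interval 2.10 to 2.91), or 5.69-fold, with an adjusted p of 1.07e-07. By size Agt had the 42nd largest rise of 22180 genes at 4 months and the 61st at 7 months.

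The order of the Agt means was 6.84 ± 0.37 (SD, n = 4) in Cre- kidneys at 4 months, 6.94 ± 0.10 (n = 3) in Cre- at 7 months, 8.68 ± 0.24 (n = 4) in Cre+ at 4 months and 9.45 ± 0.29 (n = 4) in Cre+ at 7 months. The Cre- groups overlapped and the lower-ranked Cre+ group did not reach the higher one. In Cre+ kidneys Agt rose by 0.76 between 4 and 7 months (SE 0.18, adjusted p = 0.011), and in Cre- kidneys it was 0.10 higher (adjusted p = 1.0). The difference of the Cre effect between the ages was 0.66 (SE 0.26, adjusted p = 0.216), which did not pass the test.

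Agt is made chiefly by the liver and also by fat, and no listed marker of either passed the test as higher in Cre+ kidneys. Over all genes 2.73% passed as higher at 4 months and 11.7% at 7 months, and for lists this short the absence of such markers lies near those shares. Of 4 liver markers (Alb, Apoa1, Ttr and Serpina1a) none passed at 4 months. At 7 months, where 10.8% of all genes were lower, Alb and Ttr were lower (list median -0.68). The mean level of the liver list lay between 6.45 and 6.71 in the 7-month Cre- arrays and between 5.72 and 6.21 in the Cre+ arrays. Of 4 adipocyte markers none passed at 4 months, and 1, Lep, was lower at 7 months (list median -0.60), with list means of 4.96 to 5.46 in the Cre- and 4.11 to 5.25 in the Cre+ arrays at that age. The part of such tissue in the Agt values was not tested.

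Ace, whose enzyme makes angiotensin II and also degrades bradykinin, moved the other way. At 4 months the Cre- arrays read 9.90, 9.81, 9.95 and 9.71, and the Cre+ arrays 9.28, 9.00, 9.12 and 9.10. The groups did not overlap. Ace fell by 0.72 on the log2 scale (SE 0.14, 95% interval -1.01 to -0.43), a 1.65-fold lower signal with an adjusted p of 0.00523, the 87th largest fall of all genes. At 7 months the Cre- arrays read 9.76, 9.83 and 9.70, and the Cre+ arrays 8.93, 8.35, 8.11 and 8.53. The Cre+ arrays lay further apart at this age and still all lay below the Cre- arrays. Here Ace fell by 1.28 (SE 0.15, 95% interval -1.59 to -0.97), or 2.43-fold, with an adjusted p of 7.58e-06.

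From the lowest, the Ace means were 8.48 ± 0.35 (SD, n = 4) in Cre+ kidneys at 7 months, 9.12 ± 0.11 (n = 4) in Cre+ at 4 months, 9.76 ± 0.06 (n = 3) in Cre- at 7 months and 9.84 ± 0.11 (n = 4) in Cre- at 4 months. The last pair overlapped, and the other neighbours did not. Ace fell by 0.64 between 4 and 7 months in Cre+ kidneys (SE 0.14, adjusted p = 0.00614) and was at -0.08 in Cre- kidneys (adjusted p = 1.0). The difference of the Cre effect between the ages was -0.56 (SE 0.20, adjusted p = 0.17). Without replicate 1 of the 7-month Cre+ group, the array with the highest Ace value of that group, it was -0.71 (adjusted p = 0.0297).

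**Figure D2:**
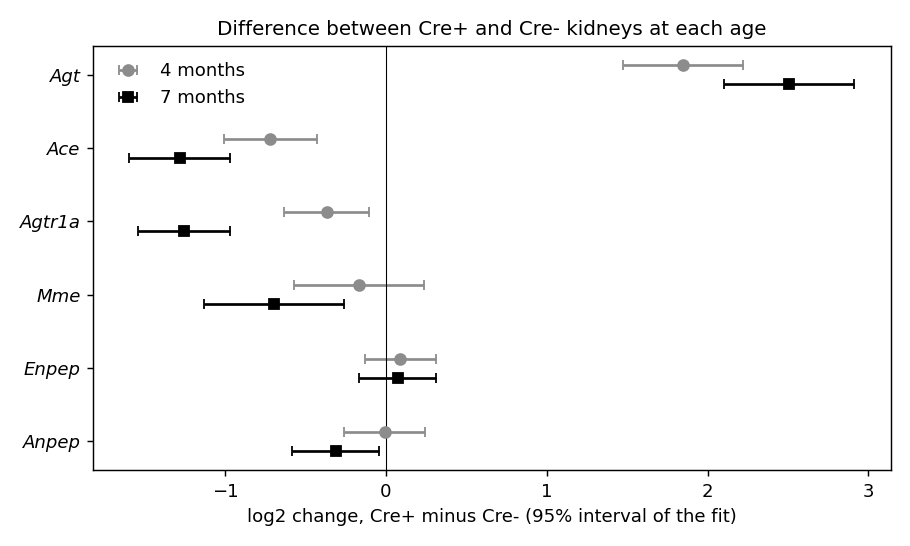
Log2 difference between Cre+ and Cre- kidneys for each of the 6 genes at 4 months (grey circles) and 7 months (black squares), with 95% intervals of the fit as bars. Agt lies at 1.85 and 2.51, Ace at -0.72 and -1.28, and Agtr1a moves from -0.37 to -1.26.

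Agtr1a, which encodes the receptor through which angiotensin II acts in vessels and tubules, was lower in Cre+ kidneys at 7 months and did not pass the test at 4 months. At 4 months the Cre- arrays read 7.69, 7.78, 7.77 and 7.97, and the Cre+ arrays 7.27, 7.33, 7.40 and 7.74. The highest Cre+ array reached into the Cre- range, and the difference of -0.37 (SE 0.12, 95% interval -0.63 to -0.11) had an adjusted p of 0.13. With each array centred on its median it was -0.46, and passed (adjusted p = 0.0251). At 7 months the Cre- arrays read 7.61, 7.69 and 7.65, and the Cre+ arrays 6.48, 6.06, 6.50 and 6.54. All Cre+ arrays lay more than a full log2 unit below the Cre- arrays, and replicate 2 lay below the other 3. Agtr1a fell by 1.26 (SE 0.13, 95% interval -1.54 to -0.97), or 2.39-fold, with an adjusted p of 3.69e-06.

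Agtr1a was the only member of the 6 for which the Cre effect itself differed between the ages. The difference was -0.89 on the log2 scale (SE 0.18, adjusted p = 0.0186), where 2.14% of all genes passed this test and 1.18% passed with a fall. It was -0.87 with an adjusted p of 0.0544 when replicate 2 of the 7-month Cre- group was left out, and did not pass within the high Y class (-0.97, adjusted p = 0.0902) or the low one (-0.79, adjusted p = 0.199). In Cre+ kidneys Agtr1a fell by 1.04 between 4 and 7 months (SE 0.12, adjusted p = 6.93e-05), the 124th largest fall of all genes, and in Cre- kidneys it was at -0.15 (adjusted p = 1.0). Its means ran from 6.39 ± 0.23 (SD, n = 4) in Cre+ at 7 months through 7.43 ± 0.21 (n = 4) in Cre+ at 4 months and 7.65 ± 0.04 (n = 3) in Cre- at 7 months to 7.80 ± 0.12 (n = 4) in Cre- at 4 months. The 3 upper groups overlapped their neighbours, and the lowest group stood apart.

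Mme encodes neprilysin, a brush border endopeptidase that cleaves angiotensin I, natriuretic peptides and bradykinin. At 4 months the Cre- arrays read 10.04, 10.45, 9.95 and 10.67, and the Cre+ arrays 9.88, 9.94, 10.27 and 10.36. The groups were interleaved, with a difference of -0.17 (SE 0.19, 95% interval -0.57 to 0.24, adjusted p = 0.735). At 7 months the Cre- arrays read 10.73, 9.80 and 10.21, and the Cre+ arrays 9.57, 9.38, 9.49 and 9.77. The groups no longer overlapped, though the highest Cre+ array, at 9.77, lay just below the lowest Cre- array, at 9.80, and the Cre- arrays were widely spread. Mme fell by 0.70 (SE 0.21, 95% interval -1.13 to -0.26), or 1.62-fold, with an adjusted p of 0.0213.

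The 7-month call for Mme changed with single arrays and with the setting. Without replicate 1 of the Cre- group, whose value of 10.73 was the highest of all, the difference was -0.45 (adjusted p = 0.139), and without replicate 2 of the Cre+ group it was -0.64 (adjusted p = 0.0561). After quantile normalization it was -0.48 (adjusted p = 0.11), and with the Y-linked mean as a covariate -0.77 (adjusted p = 0.000497). In Cre+ kidneys Mme was 0.56 lower at 7 than at 4 months (SE 0.19, adjusted p = 0.0712), and the difference of the Cre effect between ages was -0.53 (SE 0.28, adjusted p = 0.375). The means were 10.28 ± 0.34 (SD, n = 4) in Cre- and 10.11 ± 0.24 (n = 4) in Cre+ kidneys at 4 months, and 10.25 ± 0.47 (n = 3) and 9.55 ± 0.16 (n = 4) at 7 months.

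Enpep, whose product removes the first residue of angiotensin II, read between 9.60 and 10.01 in all 15 kidneys and did not pass the test at either age. The Cre- arrays read 9.81, 9.64, 9.81 and 9.85 at 4 months and 9.60, 9.78 and 9.87 at 7 months. The Cre+ arrays read 9.82, 9.87, 9.74 and 10.01 at 4 months and 9.82, 9.60, 10.00 and 9.87 at 7 months. All 4 groups overlapped. The difference was 0.09 at 4 months (SE 0.10, 95% interval -0.13 to 0.31, adjusted p = 0.742) and 0.07 at 7 months (SE 0.11, 95% interval -0.16 to 0.31, adjusted p = 0.712). The intervals reach up to 0.31 and down to -0.16. The 7-month value depended on scaling, at 0.28 after quantile normalization (adjusted p = 0.0497) and at -0.00062 after median centring. The group means lay between 9.75 and 9.86.

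Anpep, whose product also trims many other peptides at the brush border, did not pass the test at either age. At 4 months the Cre- arrays read 9.32, 9.25, 9.61 and 9.36, and the Cre+ arrays 9.20, 9.15, 9.68 and 9.49. The groups overlapped, with a difference of -0.01 (SE 0.12, 95% interval -0.26 to 0.25, adjusted p = 0.988) whose sign changed after quantile normalization, at 0.043. At 7 months the Cre- arrays read 9.51, 9.43 and 9.41, and the Cre+ arrays 9.04, 9.11, 9.28 and 9.12. All Cre+ arrays then lay below all Cre- arrays, but the difference of -0.31 (SE 0.13, 95% interval -0.59 to -0.04) had an adjusted p of 0.0972, and with median centring it was -0.39 and passed (adjusted p = 0.0238).

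The age of the mice was compared within each genotype. Between 4 and 7 months in Cre- kidneys 0 of the 6 passed, and 1 of 22180 genes did (0.00451%), with 600 genes at an unadjusted p under 0.05 in the same limma fit. The changes of the 6 lay between -0.15 and 0.10, and the groups overlapped for all 6 (they did not for 3.94% of all genes). In Cre+ kidneys 3 of the 6 passed between the ages, Agt higher and Ace and Agtr1a lower, where 10.8% of all genes did (4.12% higher and 6.71% lower). The ages did not overlap there for 4 of the 6 genes (16.8% of all genes), these 3 and Mme. Within the high Y class Agt (0.64, adjusted p = 0.0995) and Ace (-0.50, adjusted p = 0.159) did not pass. These age comparisons share their arrays with the Cre comparisons, so they are not separate evidence.

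Mme also differed between arrays of the high and the low Y class. With the groups held as terms of the fit, Mme was 0.44 lower in the arrays of high Y-linked values (SE 0.09, adjusted p = 0.012), and it was the only one of the 6 to pass, where 3.4% of all genes did. In the Cre- and Cre+ groups at 4 months and the Cre- group at 7 months, every array of low Y-linked values stood above every array of high values. The 4-month Cre- kidneys, for instance, held 10.45 and 10.67 in the low class against 10.04 and 9.95 in the high class. In the 7-month Cre+ group, where Mme was lowest, the classes overlapped. Without replicate 1 of the 7-month Cre- group, the only Cre- array of the low class at that age, the difference was -0.38 (adjusted p = 0.0576), and within the Cre+ arrays alone it was -0.28 (adjusted p = 0.217). Differences between the classes for the other 5 members ranged from -0.20 for Agt (adjusted p = 0.498) to 0.14 for Ace (adjusted p = 0.545).

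**Figure D3:**
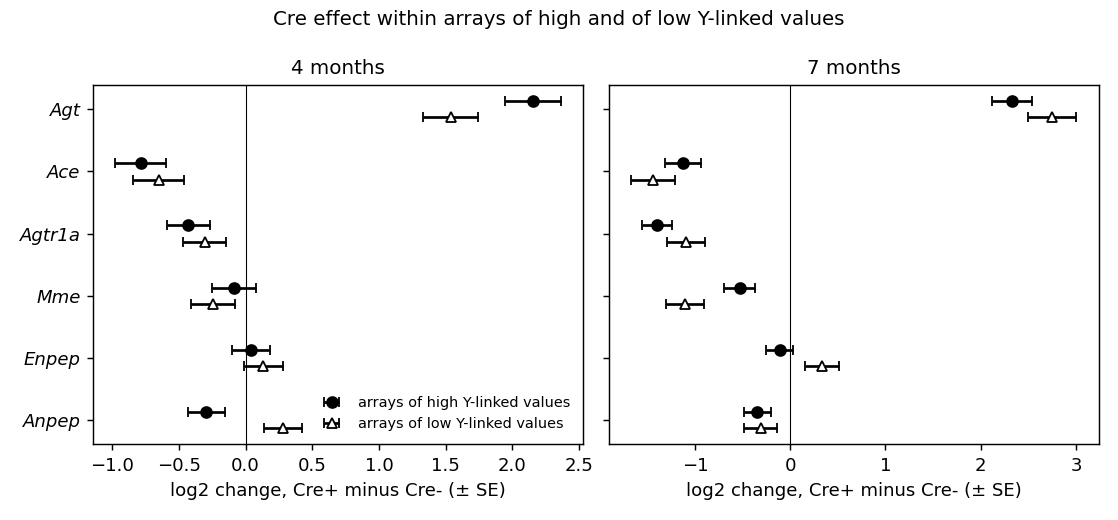
Log2 difference between Cre+ and Cre- kidneys, with its SE, for the high (filled circles) and the low (open triangles) Y class, from 1 fit over all 15 arrays with a shared spread, at 4 months on the left and 7 months on the right. Agt, Ace and Agtr1a keep their direction in both classes at both ages, and Anpep at 4 months lies at -0.29 in the high class and 0.28 in the low class.

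The Cre differences were next taken within each Y class, in 1 limma fit over all 15 arrays whose spread both classes share. At 7 months the low class held 1 Cre- array, so its values there assume that this array varies like the others. With that limit, Agt passed in both classes at both ages, at 2.15 (adjusted p = 4.37e-05) in the high and 1.54 (adjusted p = 0.000896) in the low class at 4 months, and at 2.33 and 2.75 at 7 months. Ace was at -0.79 (adjusted p = 0.0375) in the high and -0.65 (adjusted p = 0.0964) in the low class at 4 months, so it passed only in the first, and at -1.12 and -1.44 at 7 months, where both passed. Agtr1a at 7 months passed in both, at -1.40 and -1.09. Mme at 7 months was at -0.53 (adjusted p = 0.0357) in the high class and -1.10 (adjusted p = 0.00204) in the low class. The high class minus the low class passed for none of the 6 genes at either age. Among them the lowest adjusted p was that of Anpep at 4 months, with a difference of -0.57 (unadjusted p = 0.0115, adjusted p = 0.314).

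The other genes that make, receive or remove angiotensins and kinins were counted from a list. Of 27 listed genes 24 were measured under 1 symbol, and the others, Ren1 and Lnpep among them, were not analysed here. At 4 months 1 of the 24 was higher in Cre+ kidneys and none lower, where 3.53% of all genes passed, with a median of 0.04 against 0.05 for all genes. At 7 months 3 were higher and 1 lower, where 22.5% of all genes passed, with a median of -0.12 against -0.04. Both counts lie near those shares. None passed the test of the difference between ages, where 2.14% of all genes did, which also lies near that share.

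The genes that passed were 2 intracellular peptidases, an accessory protein and a kallikrein. Ctsd, the lysosomal protease cathepsin D, rose by 0.59 in 4-month Cre+ kidneys (SE 0.10, adjusted p = 0.00157). At 7 months it rose by 0.95 (SE 0.10, adjusted p = 4.47e-06). Erap1, an aminopeptidase of the endoplasmic reticulum best known for trimming antigenic peptides, was 0.58 higher at 7 months (SE 0.11, adjusted p = 0.000588). Klk1, tissue kallikrein, which releases kinins and is made in the distal nephron, fell by 0.67 at 7 months (SE 0.15, adjusted p = 0.00284). Atp6ap2, the prorenin receptor and an accessory protein of the vacuolar proton pump, was 0.35 higher at 7 months (SE 0.12, adjusted p = 0.0423), a call that was lost with median centring (0.28, adjusted p = 0.0651) and when any of 5 single arrays was left out.

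The other angiotensin receptors did not pass the test. The table has no detection calls, so whether they were above background was not tested. Agtr1b, the second rodent type 1 receptor, had group means between 3.41 and 3.70. Group means lay between 2.91 and 3.20 for Agtr2, the type 2 receptor, and between 2.20 and 2.43 for Mas1, which binds a shorter angiotensin. The lowest adjusted p among these 3 in a Cre comparison was that of Agtr2 at 7 months, 0.234.

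**Figure D4:**
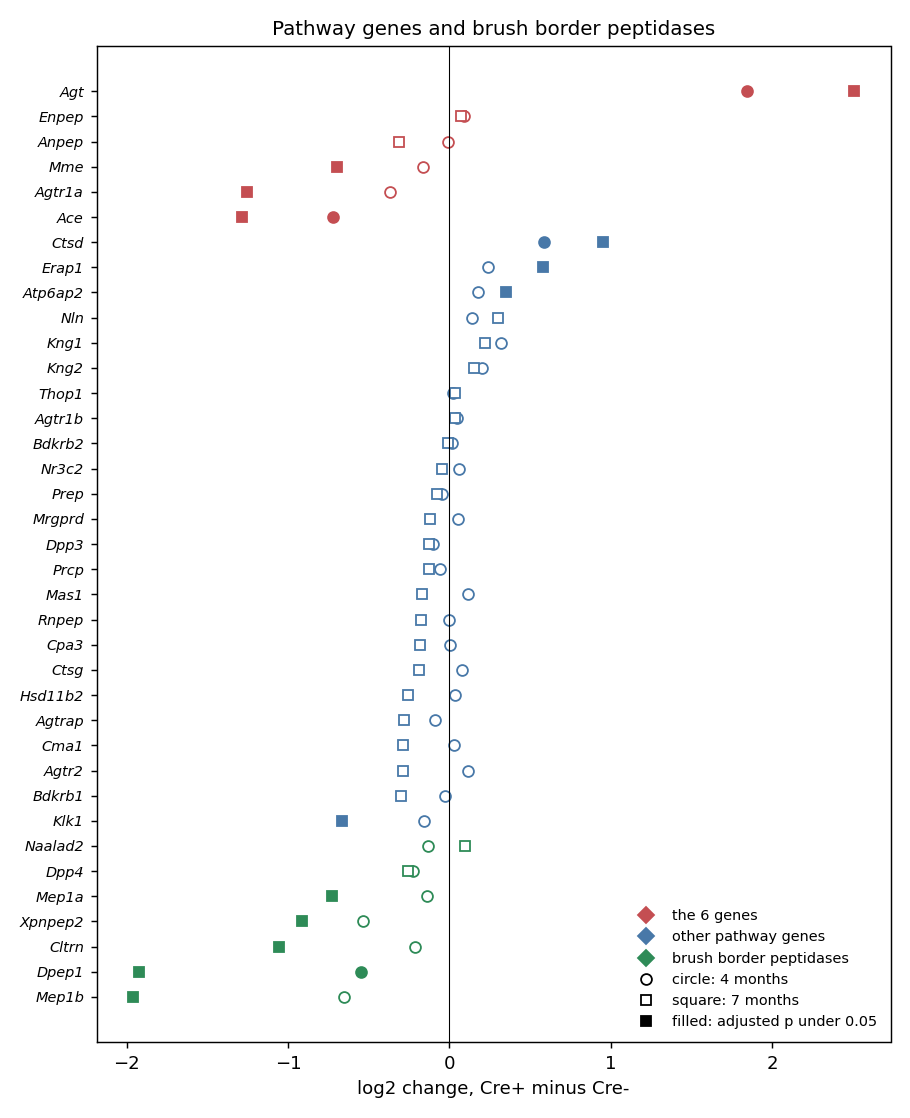
Log2 difference between Cre+ and Cre- kidneys at 4 months (circles) and 7 months (squares) for the 6 genes (red), 24 other pathway genes (blue) and 7 other brush border peptidases and relatives (green), with filled symbols for an adjusted p under 0.05. Most blue symbols sit near 0, whereas Dpep1 and Mep1b reach -1.92 and -1.96 at 7 months.

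Peptidases that share the brush border with Ace, Mme, Enpep and Anpep were mostly lower in the older Cre+ kidneys. Of 8 listed genes 7 were measured, and Ggt1 was not analysed here. At 4 months 1 was lower and none higher (median -0.23), where 0.803% of all genes were lower. At 7 months 5 were lower and none higher (median -0.91), where 10.8% of all genes were lower. Dpep1, a membrane dipeptidase that also cleaves leukotrienes, fell by 0.55 at 4 months (SE 0.14, adjusted p = 0.0402), a call that 7 of the 8 fits without 1 of the arrays compared did not keep, and by 1.92 at 7 months (SE 0.15, adjusted p = 1.78e-07). Mep1b and Mep1a, the subunits of the metalloprotease meprin, were also lower at 7 months. Mep1b fell by 1.96 (SE 0.24, adjusted p = 1.27e-05) and Mep1a fell by 0.72 (SE 0.17, adjusted p = 0.0052), and Mep1a was at -0.46 after quantile normalization (adjusted p = 0.0641). Cltrn, collectrin, a membrane protein without peptidase activity that carries amino acid transporters to the surface, fell by 1.06 (SE 0.13, adjusted p = 1.01e-05). Xpnpep2, an aminopeptidase that can cleave bradykinin, fell by 0.91 (SE 0.19, adjusted p = 0.00176). Dpp4 was at -0.26 (adjusted p = 0.347) and Naalad2 at 0.10 (adjusted p = 0.75). Set beside these, Ace at -1.28, Mme at -0.70, Anpep at -0.31 and Enpep at 0.07 all lay within the range of the brush border list at 7 months. Enpep and Anpep lay towards its upper end, near Naalad2 and Dpp4.

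Markers of the proximal tubule, where several of the 6 genes are expressed, moved with the falls. The list held 12 markers, among them the endocytic receptors Lrp2 and Cubn and the transporters Slc34a1 and Slc5a2. In Cre+ kidneys 3 were lower at 4 months (median -0.28) and all 12 at 7 months (median -1.23). Over all genes 0.803% were lower at 4 months and 10.8% at 7 months. The list's mean per array was 11.15 to 11.24 in Cre- and 10.76 to 10.96 in Cre+ kidneys at 4 months, and 11.17 to 11.21 and 9.62 to 10.16 at 7 months. The falls of Ace and Agtr1a at 7 months were thus close in size to the median of that list. At 4 months Ace, at -0.72, was below the list's median of -0.28. Enpep, at 0.07, was not lower while all 12 markers were. What part the proximal tubule markers have in the falls was not tested.

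Markers of some other cells moved too. Of 9 macrophage and monocyte markers 4 were higher at 4 months (median 0.61) and all 9 at 7 months (median 1.75). Over all genes 2.73% were higher at 4 months and 11.7% at 7 months. The list means per array were 5.90 to 6.38 in Cre- and 7.68 to 7.94 in Cre+ kidneys at 7 months. Of 5 measured podocyte markers none passed at 4 months and 3 were lower at 7 months (median -0.47), where 10.8% of all genes were lower. At that age 1 of 7 endothelial markers was lower (median -0.26), a count near that share. None of the 6 measured markers of vascular smooth muscle, pericytes and renin cells passed at either age. RMA values have no 0, so no marker could be listed there, and the part of these cells in the 6 genes' changes was not tested.

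**Figure D5:**
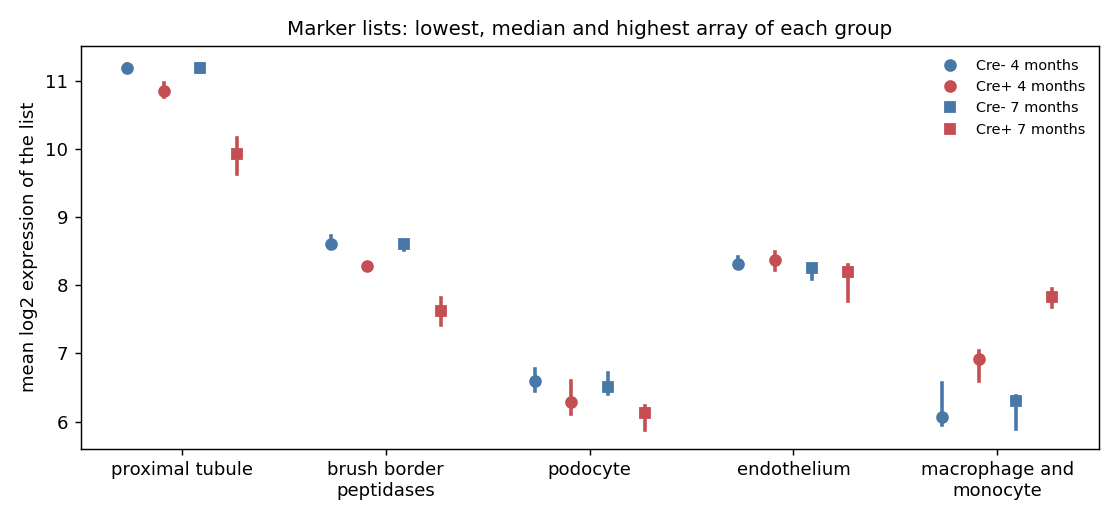
Mean log2 expression of 5 marker lists in each group, with the lowest, median and highest array as the ends and the point of each line. Proximal tubule and brush border lists are lowest and the macrophage and monocyte list is highest in Cre+ kidneys at 7 months.

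For each of the 4 members that passed in a Cre comparison, the genes with the most similar pattern over the 15 arrays were found by the root mean square difference between centred log2 values, so that 0 would be an identical pattern. Nearest to Agt were Hexa, a lysosomal hexosaminidase subunit (0.235), Prkag2, a subunit of AMP-activated kinase (0.254), and Gm20559 (0.258). Ace was nearest to Ddo, which oxidises D-aspartate (0.127), A1cf, an RNA-binding cofactor of mRNA editing (0.148), and Trim7 (0.152). Nearest to Agtr1a were Fmo1, a flavin monooxygenase (0.124), Fbp1, the gluconeogenic fructose bisphosphatase (0.127), and Asl, which makes arginine (0.132). Mme was nearest to Slc22a23 (0.108), Itpr2, a calcium release channel (0.117), and Car5b, a mitochondrial carbonic anhydrase (0.127). The members' own SDs over the 15 arrays were 1.19 for Agt, 0.60 for Ace, 0.60 for Agtr1a and 0.41 for Mme, so Agt's neighbours differ from it by more in absolute terms. All 15 arrays are shared by these patterns, so likeness is a description with no test.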

How the data were processed

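RNA of frozen whole kidneys, each from 1 mouse, was read on Affymetrix Mouse Gene 2.0 ST arrays, per the labels. The deposited values are log2 expression values that the authors made by RMA (background correction, normalization across arrays, probe summary) in Partek 6.6, per the submitters' processing notes. They lie between 1.04 and 13.12. Arrays have no sequencing depth, and their number limits the precision. Among 41345 entries, 23521 carried 1 gene symbol, 1814 more than 1 and 16010 no symbol, and 23328 had an Entrez identifier in RefSeq for GRCm38.p6. The entry of highest mean stood for each of 1082 genes with more than 1 entry, for 22180 genes in all. The platform annotation's build is not given here, so only promoter windows carry coordinates.

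Groups came from the titles. All 15 arrays entered 1 limma 3.58.1 fit (R 4.3.3) of 4 group means. Tests were two-sided and were adjusted by Benjamini and Hochberg's method over the 22180 genes, with 0.05 as the threshold. The submitters' own method was an analysis of variance. Y classes were split at the widest gap of the Y-linked mean and entered as a further term. The members, the lists of other pathway genes and of markers and the alternatives were chosen with earlier results of these data known. Members and listed genes that passed were named, and the angiotensin receptors whatever their values. Likeness was the root mean square difference of centred values. The alternatives were quantile normalization, median centring, a filter on dim genes, the plain linear model, a trended and robust variance, array weights, the Y-linked mean as a covariate, a block on the replicate number, fits within each Y class or on the groups compared only, a mean over a gene's entries, and leaving out each array. The fit was also run on simulated data with independent noise in each array, which leaves out the likeness of arrays within a Y class. Python 3.11.15 with pandas 2.3.3, numpy 2.4.6 and matplotlib 3.10.9 made the tables and figures.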

Additional observations from a re-analysis of the deposited data

Results flagged for a closer look

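In the 7-month Cre+ group, Agtr1a had 1 array far below the other 3, replicate 2 at 6.06, with a gap to the next array of 0.870 of the group's range. Over the 18 combinations of a member and a group of 4 arrays looked at in this way, chance alone sets about 1 in 20 apart.

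The difference between Cre+ and Cre- kidneys itself differed between 7 and 4 months for Agtr1a, at -0.89 on the log2 scale (SE 0.18, adjusted p = 0.0186). Among the brush border list it differed for Mep1b at -1.31 (adjusted p = 0.0445), for Dpep1 at -1.37 (adjusted p = 0.00377) and for Cltrn at -0.85 (adjusted p = 0.0161). The Mep1b result missed the threshold under 7 of 11 other settings and in 11 of 15 fits without 1 array. Among the settings were median centring (-1.30, adjusted p = 0.055) and the plain linear model (-1.31, adjusted p = 0.128). The Cltrn result missed it under 3 of these settings and in 1 of these fits. Among them were quantile normalization (-0.65, adjusted p = 0.0534) and the high Y class (-0.71, adjusted p = 0.176). The Dpep1 result missed it within the high Y class (-1.28, adjusted p = 0.0542).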

How the results depend on the processing

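Agt at both ages, and Ace and Agtr1a at 7 months, kept their direction and their call under every alternative run. Without 1 array at a time, the changes of these genes ranged from 1.73 to 1.99 (Agt, 4 months), 2.37 to 2.58 (Agt, 7 months), -1.43 to -1.16 (Ace) and -1.30 to -1.14 (Agtr1a), and those of Ace at 4 months from -0.77 to -0.68. The causes of the changes that follow were not tested, and the values within a Y class come from 1 fit over all 15 arrays, with 1 Cre- array in the low class at 7 months. The 4-month results gave the following. Quantile normalization called 287 genes lower and put Anpep at 0.043. Median centring called 511 lower and put Agtr1a at -0.46. The Y-linked mean as a covariate called 324 lower, and array weights put Anpep at 0.043. Within the high Y class 372 genes were higher and 366 lower, and within the low class 51 were lower, Ace was at -0.65 and Anpep at 0.28. At 7 months Mme was at -0.48 after quantile normalization, -0.70 in the plain linear model (adjusted p = 0.0583) and -0.55 with array weights. Enpep was at 0.28 after quantile normalization, -0.00062 after median centring and -0.11 within the high class, Anpep was at -0.39 after median centring, and genes lower numbered 3609 after median centring and 1303 within the low class.

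For the difference between ages, genes higher numbered 359 after quantile normalization, 321 after median centring, 90 in the plain linear model, 44 within the high class and 34 within the low class. Genes lower numbered 137 in the plain linear model, 433 with the covariate, 25 within the high class and 54 within the low class, and Enpep was at 0.15 after quantile normalization, 0.20 within the low class and 0.027 with array weights. Between ages in Cre- kidneys 0 genes were higher in the plain linear model, with the replicate block, within either class and with only the groups compared. Values near 0 there changed sign: Agt was at -0.32 within the low class, Mme at 0.041 with the covariate, 0.010 within the high and 0.17 within the low class, and Enpep at 0.019 and Anpep at -0.048 within the high class. In Cre+ kidneys 579 genes were higher and 556 lower between ages within the high class, and 369 and 801 within the low class, and Enpep was at 0.13 after quantile normalization and 0.055 within the low class. Between Y classes, the Cre- arrays alone gave 411 genes higher and 212 lower, with Enpep at 0.13 and Anpep at 0.061, and the Cre+ arrays alone gave 72 and 145, with Mme at -0.28.

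Deviations from the group means were correlated between arrays of different groups. Same-numbered arrays gave correlations from -0.469 to 0.298 over 21 pairs (median 0.167, 11 above 0.1). Arrays of different number gave -0.472 to 0.550 over 63 pairs (median -0.088, 29 above 0.1). Of 15 arrays, 5 were most like an array of their own number in another group. All 15 were most like an array of their own Y class. Whether the numbers pair arrays apart from the Y class was not tested. With the replicate number as a block, Mme was at 0.065 and Enpep at 0.0052 between ages in Cre- kidneys, 309 genes were lower in the high Y class, where Mme was at -0.41 (adjusted p = 0.0642) and Enpep at 0.085, and the block took no call from a member in a Cre comparison. It took those of Atp6ap2 at 7 months (0.33, adjusted p = 0.081), of the Mep1b difference between ages (-1.27, adjusted p = 0.0692) and of Xpnpep2 between Y classes (-0.37, adjusted p = 0.0573).

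Leaving out each array in turn gave these ranges for the other results. At 4 months 370 to 904 genes were higher and 72 to 197 lower, Agtr1a ranged from -0.47 to -0.31, Mme from -0.27 to -0.034, Enpep from 0.038 to 0.13 and Anpep from -0.11 to 0.070. At 7 months 1846 to 2826 were higher and 1867 to 2254 lower, Mme ranged from -0.92 to -0.45, Enpep from -0.00054 to 0.15 and Anpep from -0.36 to -0.28. For the difference between ages, 108 to 228 were higher and 117 to 288 lower, Ace ranged from -0.71 to -0.44, Agtr1a from -0.94 to -0.78, and Enpep from -0.089 to 0.058. Between ages 0 genes were higher in Cre- kidneys, where Agt ranged from -0.018 to 0.25, Mme from -0.27 to 0.19 and Enpep from -0.086 to 0.049, and in Cre+ kidneys 604 to 817 were higher and 956 to 1339 lower, with Enpep from -0.098 to 0.033. Between Y classes 180 to 290 were higher and 328 to 693 lower, with Mme from -0.50 to -0.38 and Enpep from -0.063 to 0.031.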

Other observations

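Genes around the 6 members were compared between arrays of the high and the low Y class, with the groups held as terms of the limma fit, where 3.4% of all genes passed. Hsd11b2, which protects the mineralocorticoid receptor from cortisol-like steroids, was 0.40 lower in the high class (SE 0.08, adjusted p = 0.00874), 1 of the 24 other pathway genes to pass, a count near that share. Of the 7 brush border genes, Mep1a (0.39, adjusted p = 0.00464) and Mep1b (0.52, adjusted p = 0.00732) were higher in the high class, and Dpp4 (-0.41, adjusted p = 0.00245) and Xpnpep2 (-0.39, adjusted p = 0.0192) were lower. Within the Cre+ arrays alone none of these 5 passed, with the adjusted p of Hsd11b2 at 0.182, Mep1a at 0.11, Mep1b at 0.136, Dpp4 at 0.119 and Xpnpep2 at 0.0657. Within the Cre- arrays alone Mep1a (0.37, adjusted p = 0.0952) and Xpnpep2 (-0.27, adjusted p = 0.353) did not pass. Xpnpep2 also did not pass without replicate 1 of the 7-month Cre- group (-0.38, adjusted p = 0.057).

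Cdh16, whose promoter drives the KSP-Cre transgene, was at -0.17 in Cre+ kidneys at 4 months (adjusted p = 0.548) and fell by 0.43 at 7 months (SE 0.13, adjusted p = 0.0256). That call was lost after quantile normalization (-0.25, adjusted p = 0.185) and within the high Y class (-0.35, adjusted p = 0.132). Of the 7 fits without 1 of the arrays compared, 3 also lost it, among them that without replicate 1 of the 7-month Cre- group (-0.33, adjusted p = 0.127).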
